A study of Mus musculus with 20 samples.

Results

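The small leucine-rich proteoglycans examined here are decorin (Dcn), biglycan (Bgn), asporin (Aspn), fibromodulin (Fmod), lumican (Lum), Prelp, keratocan (Kera), osteoadherin (Omd) and osteoglycin (Ogn). They were taken by gene symbol from the arrays of 5 groups of cells sorted from mouse bone. All 9 listed symbols were found, among 9129 genes tested, and all 9 lay in the authors' filtered table of 12440 probe sets. They carried 11 probe sets, because Bgn and Prelp have 2 each, and the probe set with the higher mean stood for the gene.

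These proteins are secreted into the matrix. Each has a core of leucine-rich repeats, which binds collagen fibrils and sets their spacing and width, and several carry chondroitin or dermatan sulfate chains (Dcn, Bgn) or keratan sulfate chains (Fmod, Lum, Kera, Omd). Several also bind growth factors such as TGF-β, and in bone the family is known from osteoid, periosteum and the attachment sites of tendon.

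Cells were freed from bone of untreated male wild-type C57BL6 mice aged 8 weeks by collagenase and sorted without culture. Every group lacked blood lineage markers and the endothelial protein CD31 and carried CD51, an integrin chain of bone-forming cells. SL cells had low Sca-1 and no PDGFRa. AB cells lacked Sca-1 and carried both PDGFRa and PDGFRb, B cells lacked Sca-1 and PDGFRa and carried PDGFRb, and A cells lacked Sca-1 and PDGFRb and carried PDGFRa. DN cells lacked Sca-1 and PDGFRa and are coded as double negative, although the sign of the PDGFRb gate cannot be read from the titles of DN and SL. Each group had 4 arrays, 20 in all. The labels do not say whether replicates were separate animals or sorts. The p-values therefore cover the spread among these arrays and nothing wider, and the number of arrays limits the precision.

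Levels below are log2 array signal. Differences are on the log2 scale with the SE of the limma fit (n = 4 per group). A gene counted as called when its adjusted p (Benjamini-Hochberg, all 9129 genes, separately by comparison) was under 0.05. Array medians lay between log2 6.40 and 6.46. Of 10 osteoblast markers 8 were measured in the filtered table. Among them Col1a1 averaged 12.74 to 13.07 and Ibsp 11.99 to 12.51 over the 5 groups, while the osteocyte-associated Dmp1 averaged 4.76 in SL and 7.43 to 8.43 in the other groups. Ly6a, which encodes Sca-1, went against the gate on some arrays. Its replicates 1 to 4 read 7.09, 7.24, 8.72 and 10.05 in AB and 7.01, 7.10, 10.18 and 10.90 in B, although both were sorted as Sca-1-negative, against 10.30 to 10.79 in SL, 7.25 to 8.15 in A and 7.03 to 8.28 in DN. Member results that rest on AB or B were therefore fitted also with replicates 1 and 2 alone in these groups, and calls that changed are given. The other listed genes and the cell markers are given only with all 4 replicates. In sorted bulk samples, fewer cells of a type and less RNA per cell cannot be told apart.

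Most members lie in 2 rows of neighbouring family genes, on mouse chromosomes 10 and 13 (positions from the authors' deposited tables, which name no build). On chromosome 10, Dcn (97479500 to 97518162), Lum (97565501 to 97572703) and Kera (97607205 to 97613688) were followed by Epyc, which encodes epiphycan, with 47.3, 34.5 and 30.4 kb between neighbours. On chromosome 13, Ecm2 was followed by Aspn (49544443 to 49567557), Omd (49582766 to 49592609) and Ogn (49608071 to 49624500), with 11.7, 15.2 and 15.5 kb between neighbours. Prelp (133910304 to 133921414) and Fmod (134037254 to 134048277) lie 115.8 kb apart on chromosome 1, and Bgn (73483602 to 73495933) lies on chromosome X.

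The promoters of Aspn, Omd, Ogn and Kera are shown, because Aspn, Ogn and Kera had the largest increases among the members and Omd, which sits between Aspn and Ogn, fell. Each sequence is the 250 bases before the start that the RefSeq promoter table uses for the gene (GRCm38.p6, plus strand). For Kera this start equals the authors' gene start (97607205), whereas the RefSeq gene as a whole begins at 97606962, so that most of the Kera window lies within it. They cover chr13:49544193-49544442 for Aspn, chr13:49582212-49582461 for Omd, chr13:49607765-49608014 for Ogn and chr10:97606955-97607204 for Kera. Capitals mark TATAAA or its reverse complement TTTATA and the RUNX letters TGTGGT or their reverse complement ACCACA.
Aspn: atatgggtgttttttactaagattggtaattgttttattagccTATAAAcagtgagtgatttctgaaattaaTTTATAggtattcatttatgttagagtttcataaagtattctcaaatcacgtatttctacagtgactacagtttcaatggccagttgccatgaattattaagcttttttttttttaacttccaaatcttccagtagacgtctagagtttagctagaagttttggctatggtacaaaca
Omd: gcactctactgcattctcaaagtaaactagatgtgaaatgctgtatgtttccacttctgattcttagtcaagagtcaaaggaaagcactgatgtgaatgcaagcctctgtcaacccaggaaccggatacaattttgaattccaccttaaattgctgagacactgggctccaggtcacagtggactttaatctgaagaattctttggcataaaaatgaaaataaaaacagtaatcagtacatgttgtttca
Ogn: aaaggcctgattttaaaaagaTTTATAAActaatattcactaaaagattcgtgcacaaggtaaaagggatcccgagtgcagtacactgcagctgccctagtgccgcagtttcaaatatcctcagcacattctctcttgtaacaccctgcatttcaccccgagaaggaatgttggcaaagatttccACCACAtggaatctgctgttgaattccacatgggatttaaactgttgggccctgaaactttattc
Kera: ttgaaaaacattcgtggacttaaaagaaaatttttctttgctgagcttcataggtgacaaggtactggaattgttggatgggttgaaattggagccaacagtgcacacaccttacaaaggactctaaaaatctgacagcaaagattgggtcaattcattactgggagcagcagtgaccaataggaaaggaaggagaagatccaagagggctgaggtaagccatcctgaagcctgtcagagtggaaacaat

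The RefSeq promoter table matched 7 of the 9 members, Dcn and Lum being the exceptions. Both strands were searched for the RUNX letters TGTGGT, for the TATA letters TATAAA and for the E-box CANNTG. The RUNX letters were found in 14% of 32817 promoters of the same length and, among the 7 members, in Ogn, where its match starts 65 bases before the table's start. The TATA letters were found in 12.4% of all promoters and in Aspn and Ogn, with 2 matches each, those of Ogn overlapping each other. All of these TATA matches lie further before the table's start than the RUNX match of Ogn. Whether any of them works as a TATA box was not tested. The E-box was found in 66.2% of all promoters, and in Bgn, Aspn, Fmod and Ogn. The windows of Omd, Kera and Prelp held none of the 3 letter patterns, and that of Prelp (133921402 to 133921651, minus strand) also lies within the RefSeq gene, which extends to 133930102.

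Across the 5 groups, 6 of the 9 members differed by limma's moderated F test, where 50.6% of all genes were called. Ogn had the lowest adjusted p (1.64e-10), followed by Omd (6.1e-09), Aspn (5.53e-08), Kera (7.24e-08), Lum (2.65e-07) and Dcn (0.000425). Prelp (adjusted p = 0.0721), Fmod (0.167) and Bgn (0.193) were not called. The F test called 8 members after quantile normalization, and 7 with the mean of probe sets, with the replicate block, without A replicate 1 or without AB replicate 3. SL, AB and B stood on one side and A and DN on the other for Aspn, Lum and Ogn, with no overlap of arrays between the sides. The share of all genes that split in this way was not counted, so the split cannot be read as particular to the members. Omd was lowest in SL and highest in A and DN.

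**Figure D1:**
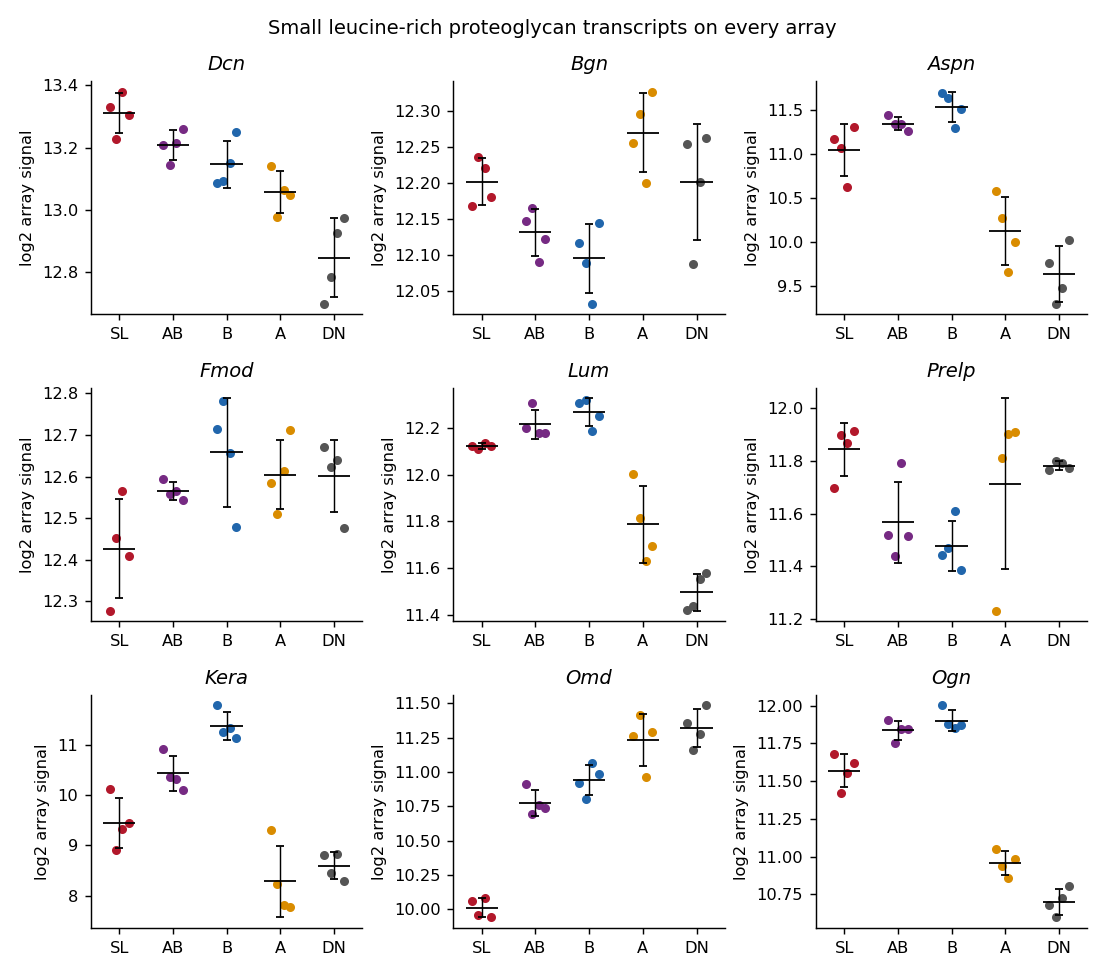
Log2 array signal (vertical axes, which do not start at 0 and differ between panels) of the 9 members in SL, AB, B, A and DN. Each point is 1 array, ordered by replicate number within its group, with the group mean as a horizontal bar and the SD as a vertical bar (n = 4). Aspn, Lum and Ogn lie higher on every SL, AB and B array than on any A or DN array, Kera is highest in B (11.14 to 11.79), and Omd is lowest in SL (9.95 to 10.09).

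SL cells, against DN cells, had more Aspn, Ogn, Kera, Lum and Dcn and less Omd, and Bgn, Fmod and Prelp were not called. Thus 6 of 9 members were called, where 45.2% of all genes were, with 5 higher (23.9% of all genes) and 1 lower (21.3%). The median difference over the 9 members was 0.47, beside 0.01 over all genes. Aspn rose by 1.40 ± 0.18 (adjusted p = 2.68e-06), Ogn by 0.87 ± 0.08 (adjusted p = 2.35e-08), Kera by 0.86 ± 0.29 (adjusted p = 0.0207), Lum by 0.63 ± 0.08 (adjusted p = 2.74e-06) and Dcn by 0.47 ± 0.08 (adjusted p = 5.32e-05). Omd fell by 1.31 ± 0.10 (adjusted p = 2.27e-09), so that its signal was 2.48-fold lower in SL. The call of Kera was lost without SL replicate 1 (0.63, adjusted p = 0.0890), without DN replicate 4 (0.76, adjusted p = 0.0620) and without every replicate 4 (adjusted p = 0.0936).

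Cells with PDGFRb, against A cells, had more Kera, Aspn, Ogn and Lum and less Omd, in AB and in B alike. In AB against A, 5 of 9 members were called, where 32.9% of all genes were, with 4 higher (17.7% of all genes) and 1 lower (15.2%). In B against A, which shares the A arrays, 5 members were also called, where 29.7% of all genes were, with 4 higher (15.1%) and 1 lower (14.6%). Median differences over the members were 0.15 in AB against A and 0.09 in B against A, beside 0.03 over all genes in each. Kera rose most, by 2.14 ± 0.29 in AB (4.42-fold, adjusted p = 8.47e-06) and by 3.09 ± 0.29 in B (8.53-fold, adjusted p = 1.55e-07). Dcn, which rose in SL against DN, was not called in AB against A (0.15, 95% interval -0.01 to 0.31, adjusted p = 0.146) or in B against A (0.09, 95% interval -0.07 to 0.25, adjusted p = 0.426).

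With replicates 1 and 2 alone in AB and B, where Ly6a was low, the same 5 members were called in both pairs. Kera was then 2.36 higher in AB (adjusted p = 0.000156) and 3.24 higher in B (adjusted p = 6.8e-06) than in A. Aspn was 1.27 higher in AB (adjusted p = 0.000663) and 1.54 higher in B (adjusted p = 0.000116), and Ogn was 0.87 higher in AB (adjusted p = 1e-05) and 0.98 higher in B (adjusted p = 3.14e-06). Lum was 0.47 higher in AB (adjusted p = 0.00337) and 0.53 higher in B (adjusted p = 0.00136), whereas Omd differed by -0.43 in AB (adjusted p = 0.0201) and by -0.37 in B (adjusted p = 0.0414). In SL against B, Kera was at -2.07 (adjusted p = 0.00123), Omd at -0.85 (adjusted p = 0.000254) and Ogn at -0.37 (adjusted p = 0.0293), and in SL against AB Omd was at -0.79 (adjusted p = 0.000614). Kera in AB against B (-0.88, adjusted p = 0.661) and Prelp in B against DN (-0.33, adjusted p = 0.101) were not called on these arrays.

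A cells and DN cells differ in the PDGFRa gate, and limma called none of the 9 members between them, where 3.53% of all genes were called. At an unadjusted p under 0.05 there were 4 members, namely Aspn (0.49 ± 0.18, adjusted p = 0.165), Lum (0.29 ± 0.08, adjusted p = 0.0525), Ogn (0.26 ± 0.08, adjusted p = 0.0798) and Dcn (0.21 ± 0.08, adjusted p = 0.153). The A arrays of Lum, Ogn and Dcn all lay above the DN arrays, and the share of all genes for which this held was not counted. Lum was called without A replicate 3 (0.34, adjusted p = 0.0335) and with the mean of probe sets (adjusted p = 0.0480). With the replicate number as a block Lum (adjusted p = 0.0458) and Ogn (adjusted p = 0.0377) were called. Kera differed by -0.31 (95% interval -0.91 to 0.29, adjusted p = 0.649) and Omd by -0.09 (95% interval -0.29 to 0.12, adjusted p = 0.72).

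AB cells and B cells also differ in the PDGFRa gate, here in the presence of PDGFRb, and limma again called none of the 9 members, where 1.52% of all genes were called. Kera was the only member at an unadjusted p under 0.05, at -0.95 ± 0.29 (95% interval -1.55 to -0.34, adjusted p = 0.154). Its B arrays all lay above its AB arrays. The labels do not say what a replicate number stands for, but deviations of AB and B arrays of the same number were correlated (r = 0.170 to 0.422). In a limma fit of all 5 groups with the number as a block the Kera difference was called (adjusted p = 0.00556). It was also called without A replicate 1 (adjusted p = 0.0367). The authors' deposited table, which gives B minus AB, has 0.95 for Kera with a q-value of 0.0489. The other 8 members differed between AB and B by -0.19 (Aspn) to 0.09 (Prelp).

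Whether the PDGFRa difference depends on PDGFRb was tested as (AB minus B) minus (A minus DN), with DN taken as negative for both receptors from its code. None of the 9 members was called by limma, where 0.668% of all genes were. At an unadjusted p under 0.05 there were 3 members, all negative, namely Aspn (-0.68 ± 0.26, adjusted p = 0.275), Lum (-0.34 ± 0.11, adjusted p = 0.195) and Ogn (-0.32 ± 0.11, adjusted p = 0.212).

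**Figure D2:**
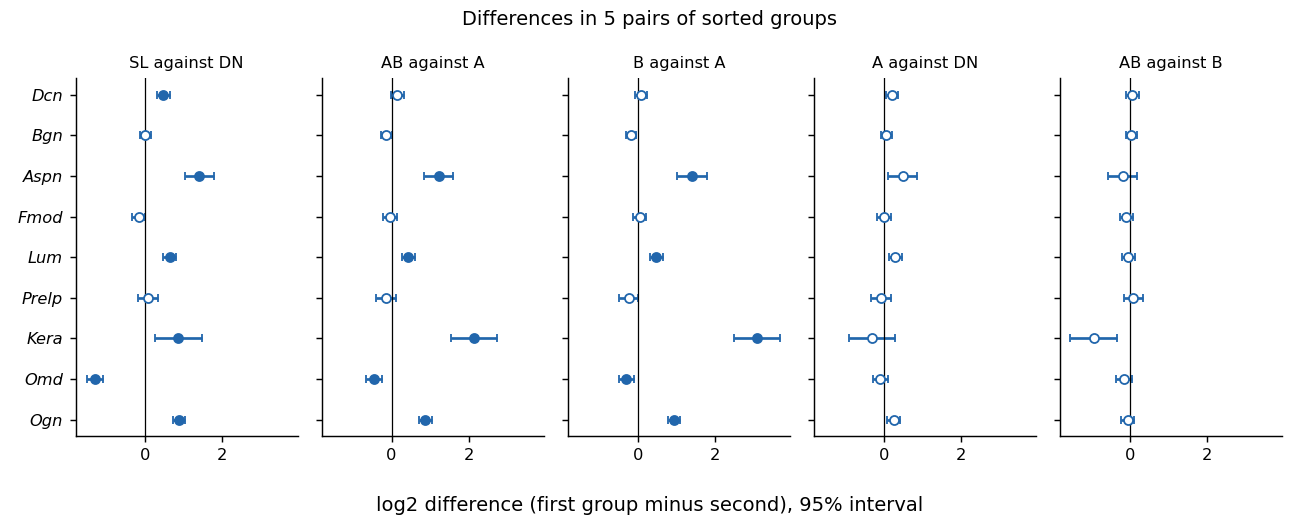
Log2 differences (horizontal axes, first named group minus second) of the 9 members in SL against DN, AB against A, B against A, A against DN and AB against B. Points are limma estimates with 95% intervals, filled where the adjusted p was under 0.05 and open otherwise. Kera, Aspn, Ogn and Lum are filled to the right and Omd to the left in each of the first 3 panels, and no point is filled in the last 2.

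The remaining pairs share arrays with those above. AB against DN had 6 members called, where 46.1% of all genes were, and B against DN had 7, where 45.7% were. In both, Dcn, Aspn, Lum, Kera and Ogn were higher and Omd was lower, and in B against DN Prelp was lower too. SL against A had 6 members called, where 32.6% of all genes were, the same members in the same directions as in SL against DN. SL against AB had 3 members called, where 9.34% of all genes were, and SL against B had 3, where 12.5% were. These were Kera, Ogn and Omd in both pairs, all lower in SL (4.92% of all genes were lower in SL against AB and 6.86% in SL against B).

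Dcn encodes decorin, which binds collagen fibrils and TGF-β. It read 13.33, 13.23, 13.38 and 13.31 in SL replicates 1 to 4, 13.21, 13.15, 13.22 and 13.26 in AB, and 13.09, 13.09, 13.15 and 13.25 in B. It read 13.14, 12.98, 13.06 and 13.05 in A, against 12.70, 12.78, 12.93 and 12.97 in DN. The DN arrays were the lowest, with no overlap, and the SL arrays overlapped those of AB and B. Dcn was higher than in DN by 0.47 ± 0.08 in SL, 0.36 ± 0.08 in AB (adjusted p = 0.000639) and 0.30 ± 0.08 in B (adjusted p = 0.00332), and higher in SL than in A by 0.25 ± 0.08 (adjusted p = 0.0153). The B against DN call was lost with B and AB replicates 1 and 2 alone (0.25, adjusted p = 0.0631), and the SL against A call without every replicate 4 (adjusted p = 0.0634). The highest Dcn array lay 0.247 below the highest value of the whole table, 13.63, the closest of any member.

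Bgn, on the X chromosome, encodes biglycan, the closest relative of decorin, and mice that lack it have low bone mass. It lay between 12.03 and 12.33 on all 20 arrays, a range narrower than that of any other member. It averaged 12.20 ± 0.03 (SD, n = 4) in SL, 12.13 ± 0.03 in AB, 12.10 ± 0.05 in B, 12.27 ± 0.05 in A and 12.20 ± 0.08 in DN. It was called in no pair with the values as deposited, and its B arrays all lay below its A arrays (-0.17 ± 0.07, adjusted p = 0.0566). That difference was called without A replicate 3 (-0.20, adjusted p = 0.0461) or DN replicate 2 (adjusted p = 0.0438), and after quantile normalization (-0.21, adjusted p = 0.0259). Quantile normalization also moved Bgn in B against DN to -0.17 (adjusted p = 0.0450), against -0.11 (adjusted p = 0.209) without it. In the second Bgn probe set the difference in B against A was -0.03 ± 0.09 (adjusted p = 0.857), and no pair was called there.

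Aspn encodes asporin, which carries an aspartate-rich stretch, binds collagen and TGF-β and is abundant in periodontal ligament. It read 11.17, 11.07, 10.63 and 11.31 in SL, 11.45, 11.34, 11.35 and 11.26 in AB, and 11.69, 11.64, 11.30 and 11.52 in B. It read 10.58, 10.27, 9.66 and 9.998 in A, against 9.76, 9.30, 9.47 and 10.03 in DN. All SL, AB and B arrays exceeded all A and DN arrays, while SL overlapped AB and B, and A overlapped DN. Aspn was higher than in DN by 1.40 ± 0.18 in SL, 1.71 ± 0.18 in AB (3.27-fold, adjusted p = 1.82e-07) and 1.90 ± 0.18 in B (3.73-fold, adjusted p = 5.76e-08). It was higher than in A by 0.92 ± 0.18 in SL (adjusted p = 0.000562), 1.22 ± 0.18 in AB (adjusted p = 2.44e-05) and 1.41 ± 0.18 in B (adjusted p = 5.64e-06). SL and B differed by -0.49 ± 0.18 (95% interval -0.87 to -0.12, adjusted p = 0.0862), and SL and AB by -0.30 ± 0.18 (95% interval -0.68 to 0.07, adjusted p = 0.415). With the replicate number as a block the difference of SL and B was called (adjusted p = 0.0264). In order of mean level the groups ran B, AB, SL, A and DN, and of these neighbours only SL and A differed beyond their spread.

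Fmod encodes fibromodulin, a keratan sulfate proteoglycan of tendon that binds collagen. It lay between 12.28 and 12.78 on all arrays and was called in no pair. Its largest difference was -0.23 ± 0.08 in SL against B (95% interval -0.41 to -0.06, adjusted p = 0.0794), where the arrays overlapped. Without B replicate 4 it was called (-0.29, adjusted p = 0.0271).

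Lum encodes lumican, which spaces collagen fibrils in cornea, skin and bone matrix. It read 12.12, 12.11, 12.14 and 12.12 in SL, 12.20, 12.31, 12.18 and 12.18 in AB, and 12.31, 12.32, 12.19 and 12.26 in B. It read 12.01, 11.82, 11.63 and 11.70 in A, against 11.42, 11.44, 11.55 and 11.58 in DN. The SL arrays were nearly equal and lay just below all AB and B arrays, A lay lower, and DN was lowest, with no overlap between these steps. Lum was higher than in A by 0.34 ± 0.08 in SL (adjusted p = 0.00313), 0.43 ± 0.08 in AB (adjusted p = 0.000318) and 0.48 ± 0.08 in B (adjusted p = 0.000118). Against DN it was higher by 0.63 ± 0.08 in SL, 0.72 ± 0.08 in AB (adjusted p = 4.05e-07) and 0.77 ± 0.08 in B (adjusted p = 1.99e-07). SL against AB (-0.09, 95% interval -0.26 to 0.08, adjusted p = 0.635) and SL against B (-0.14, 95% interval -0.31 to 0.02, adjusted p = 0.321) were not called.

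Prelp encodes a collagen-binding and heparan sulfate-binding protein found near basement membranes and in cartilage. It read 11.70, 11.90, 11.87 and 11.91 in SL, 11.52, 11.44, 11.79 and 11.52 in AB, and 11.44, 11.47, 11.61 and 11.39 in B. It read 11.23, 11.81, 11.90 and 11.91 in A, against 11.77, 11.80, 11.79 and 11.77 in DN. A replicate 1 was the lowest of all 20 arrays, while the other A arrays lay with SL and DN. Prelp was lower in B than in DN by the test (-0.31 ± 0.12, adjusted p = 0.0470), but this call was lost when any 1 of 14 of the 20 arrays was left out (adjusted p 0.0503 to 0.102). Those arrays were SL replicates 2, 3 and 4, AB replicates 1, 2 and 4, B replicates 1, 2 and 4, A replicate 2 and all DN replicates. It was also lost without every replicate 4 (adjusted p = 0.161) and with every probe set as a feature (adjusted p = 0.0666). Without A replicate 1, Prelp was called lower in AB than in A (-0.31, adjusted p = 0.0165), in B than in A (-0.40, adjusted p = 0.00304) and in AB than in DN (adjusted p = 0.0454). It was then also called higher in SL than in AB (0.28, adjusted p = 0.0476) and in SL than in B (0.37, adjusted p = 0.00674, against 0.0547 with all arrays). Prelp in SL against B was called as well after quantile normalization (adjusted p = 0.0331), with the mean of its probe sets (adjusted p = 0.0352), on the arrays of SL and B alone (adjusted p = 0.0269) and without AB replicate 3 (adjusted p = 0.0477). Its second probe set was lower in AB than in DN (-0.29 ± 0.09, adjusted p = 0.0155) and in B than in DN (-0.26 ± 0.09, adjusted p = 0.0307). It was higher in SL than in AB (0.34 ± 0.09, adjusted p = 0.0255) and in SL than in B (0.31 ± 0.09, adjusted p = 0.0376), with adjustment over all probe sets of the filtered table.

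Kera encodes keratocan, best known as a keratan sulfate proteoglycan of the corneal stroma and also reported in mouse osteoblasts. It read 10.12, 8.91, 9.33 and 9.45 in SL, 10.92, 10.37, 10.33 and 10.11 in AB, and 11.79, 11.26, 11.32 and 11.14 in B. It read 9.31, 8.23, 7.82 and 7.78 in A, against 8.81, 8.44, 8.83 and 8.29 in DN. Every B array lay above every array of the other groups, AB came next and just overlapped SL through SL replicate 1, and A and DN overlapped. Its differences had the largest SE of any member (0.29), with group SDs of 0.50 in SL, 0.35 in AB, 0.28 in B, 0.71 in A and 0.27 in DN. It was higher than in DN by 0.86 ± 0.29 in SL, 1.84 ± 0.29 in AB (3.57-fold, adjusted p = 2.81e-05) and 2.78 ± 0.29 in B (6.88-fold, adjusted p = 1.77e-07), and higher in SL than in A by 1.17 ± 0.29 (adjusted p = 0.00399). It was lower in SL than in B by 1.93 on the log2 scale (adjusted p = 0.000149), and -1.93 ± 0.29 was the largest difference of a member between SL and either PDGFRb-positive group.

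In SL against AB the Kera difference was -0.98 ± 0.29 (adjusted p = 0.0365). Leaving out SL replicate 2, 3 or 4 or AB replicate 1, 2 or 3 ended that call (adjusted p 0.0595 to 0.140), as did replicates 1 and 2 alone in AB and B (-1.19, adjusted p = 0.0591), the loss of every replicate 4 (adjusted p = 0.0631) and every probe set as a feature (adjusted p = 0.0642). In order of mean level the groups ran B, AB, SL, DN and A. Of these neighbours AB and SL, and SL and DN, were called, each with the exceptions given, and B and AB only in the blocked fit and without A replicate 1. Replicate 1 held the highest Kera array in 4 of the 5 groups, and likewise the highest Ogn array in 4 of 5. Kera in A replicate 1 lay 1.02 above its group mean and in SL replicate 1 0.67 above.

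**Figure D3:**
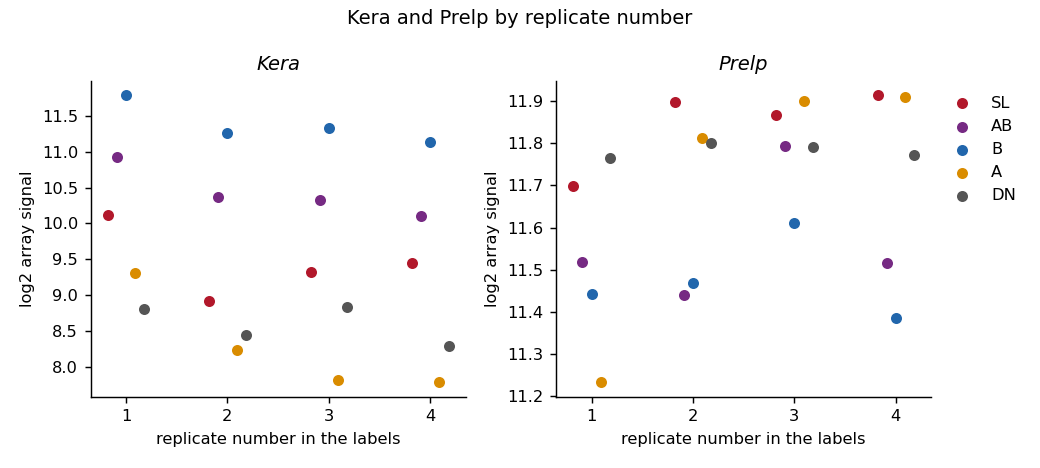
Log2 array signal of Kera (left) and Prelp (right) by the replicate number in the labels, with 1 point per array coloured by group. Kera is lower in AB than in B at each of the 4 numbers, and its highest A array (9.31) and highest SL array (10.12) carry number 1. The A array of number 1 is the lowest Prelp array (11.23).

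Omd encodes osteoadherin, a keratan sulfate proteoglycan of mineralised matrix that binds hydroxyapatite. It read 10.06, 9.96, 10.09 and 9.95 in SL, 10.91, 10.70, 10.76 and 10.74 in AB, and 10.92, 10.80, 11.07 and 10.98 in B. It read 11.26, 11.42, 10.97 and 11.29 in A, against 11.36, 11.16, 11.28 and 11.49 in DN. SL lay far below the other groups, AB lay below A and DN without overlap, and B overlapped A but not DN. Omd was lower in SL than in DN (-1.31 ± 0.10), A (-1.22 ± 0.10, adjusted p = 1.78e-08), B (-0.93 ± 0.10, adjusted p = 3.23e-06) and AB (-0.77 ± 0.10, adjusted p = 2.93e-05). These 4 calls held under every alternative that was run.

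Omd was lower than in DN by smaller amounts in AB (-0.54 ± 0.10, adjusted p = 0.000134) and in B (-0.38 ± 0.10, adjusted p = 0.00383), and it was lower in AB than in A (-0.46 ± 0.10, adjusted p = 0.0012). In B against A it was -0.29 ± 0.10 (adjusted p = 0.0309), a call that 5 arrays could each undo when left out, namely B replicates 1 and 2 and A replicates 1, 2 and 4 (adjusted p 0.0648 to 0.114). It was also lost without every replicate 4 (adjusted p = 0.1) and in a fit on the arrays of B and A alone (adjusted p = 0.0947). In order of mean level the groups ran DN, A, B, AB and SL. DN and A (adjusted p = 0.72) and B and AB (adjusted p = 0.676) did not differ beyond their spread.

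Ogn encodes osteoglycin, also called mimecan, a protein of bone and connective tissue matrix. It read 11.68, 11.42, 11.55 and 11.62 in SL, 11.90, 11.75, 11.84 and 11.84 in AB, and 12.00, 11.88, 11.85 and 11.87 in B. It read 11.05, 10.94, 10.86 and 10.98 in A, against 10.68, 10.60, 10.72 and 10.80 in DN. AB and B overlapped each other and lay above SL, SL lay above A, and A lay above DN. Ogn was higher than in DN by 0.87 ± 0.08 in SL, 1.13 ± 0.08 in AB (2.19-fold, adjusted p = 5.54e-10) and 1.20 ± 0.08 in B (2.29-fold, adjusted p = 5.53e-10). It was higher than in A by 0.61 ± 0.08 in SL (adjusted p = 5.1e-06), 0.88 ± 0.08 in AB (adjusted p = 4.38e-08) and 0.94 ± 0.08 in B (adjusted p = 4.74e-08). Ogn was lower in SL than in B (-0.33 ± 0.08, adjusted p = 0.00712) and than in AB (-0.27 ± 0.08, adjusted p = 0.0351). Leaving out SL replicate 2, 3 or 4 or AB replicate 1, 3 or 4 ended the call against AB (adjusted p 0.0514 to 0.136), as did replicates 1 and 2 alone in AB and B (-0.26, adjusted p = 0.172), the loss of every replicate 4 (adjusted p = 0.120) and a fit on the arrays of SL and AB alone (adjusted p = 0.0775).

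Each row held a gene called in the opposite direction to its neighbours in SL, AB and B against DN. On chromosome 10, Dcn, Lum and Kera were higher in SL, AB and B than in DN, while Epyc, their next neighbour and a proteoglycan of growth plate cartilage, was lower, at -4.75 ± 0.37 in SL (adjusted p = 3.49e-09), -5.19 ± 0.37 in AB (adjusted p = 8.29e-10) and -4.09 ± 0.37 in B (adjusted p = 2.81e-08). On chromosome 13, Omd was lower and its neighbours Aspn and Ogn were higher in the same 3 groups. Ecm2, the next gene before Aspn, was higher in SL than in DN (0.44 ± 0.14, adjusted p = 0.0189) and was not called in AB (95% interval -0.30 to 0.30, adjusted p = 0.995) or in B (0.19, 95% interval -0.12 to 0.49, adjusted p = 0.313).

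**Figure D4:**
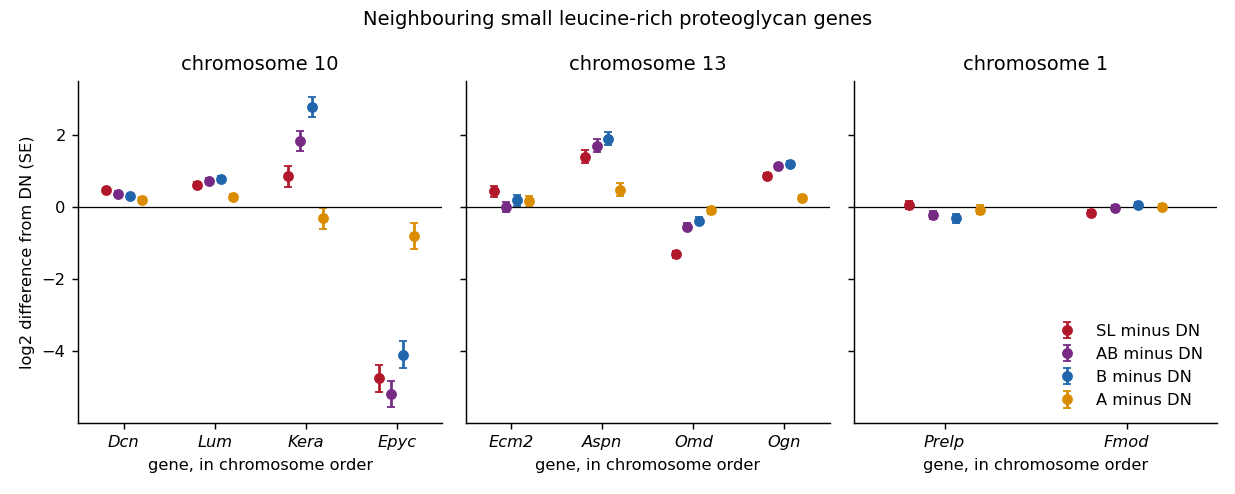
Log2 differences from DN (vertical axis, shared by the 3 panels; bars are SE) for SL, AB, B and A, with genes in the order in which they lie on chromosomes 10, 13 and 1 and not to scale. In SL, AB and B, Dcn, Lum and Kera lie above 0 and Epyc below 0 (-4.75 in SL, -5.19 in AB, -4.09 in B), and Omd lies below 0 between Aspn and Ogn above 0. In A, Kera is at -0.31 and Epyc at -0.80, neither of them called. The 4 comparisons share the DN arrays.

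Of the other 9 genes of the family listed, 6 were measured (Epyc, Nyx, Chad, Chadl, Podn and Ecm2). In SL against DN 2 were higher and 3 lower, in AB against A 1 was higher and 3 lower, and in B against A none was higher and 3 were lower. For these and the following lists, the shares over all genes were 23.9% higher and 21.3% lower in SL against DN, 17.7% and 15.2% in AB against A, and 15.1% and 14.6% in B against A. The list's median differences were -0.97 in SL against DN, -0.66 in AB against A and -0.46 in B against A, opposite in sign to those of the 9 members. Epyc was at -4.39 ± 0.37 in AB against A and -3.29 ± 0.37 in B against A. Chadl, a chondroadherin-like cartilage gene, was at -3.20 ± 0.22 in SL against DN, -2.93 ± 0.22 in AB against A and -2.25 ± 0.22 in B against A. Chad, which encodes chondroadherin, was at -1.70 ± 0.11, -1.17 ± 0.11 and -0.94 ± 0.11 in those pairs, and Podn, which encodes podocan, was higher by 1.78 ± 0.14 in SL against DN and by 0.71 ± 0.14 in AB against A. None was called in A against DN or AB against B.

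The collagens that the family binds or spaces were all measured, 13 of 13. In SL against DN 7 were higher and 2 lower, in AB against A 3 were higher and 2 lower, and in B against A 3 were higher and 2 lower, the counts in AB against A and in B against A being close to the shares over all genes. Their medians were 0.18, 0.05 and 0.10 in those pairs, beside 0.01, 0.03 and 0.03 over all genes. Col14a1, a fibril-associated collagen, was at 2.69 ± 0.26 in SL against DN, 1.05 ± 0.26 in AB against A and 0.72 ± 0.26 in B against A. Col11a2, a cartilage fibril collagen, was at -2.55 ± 0.24, -2.51 ± 0.24 and -1.64 ± 0.24. Col11a1 was at -0.64 ± 0.07 in AB against A. Col3a1 was higher in SL than in DN (0.91 ± 0.08), in B than in A (0.52 ± 0.08). It was the only collagen called in A against DN (0.30 ± 0.08, adjusted p = 0.0456). None was called in AB against B.

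Of 28 listed enzymes that build and sulfate the glycosaminoglycan chains, 18 were measured. In SL against DN 4 were higher and 9 lower, in AB against A 3 were higher and 7 lower, in B against A 3 were higher and 9 lower, and none was called in A against DN or AB against B. Their medians were -0.38, -0.21 and -0.35 in the first 3 pairs. Chst11, a chondroitin 4-O-sulfotransferase, was at -2.26 ± 0.16, -2.08 ± 0.16 and -1.89 ± 0.16 in those pairs. Chst3, a chondroitin 6-O-sulfotransferase, was at -1.54 ± 0.21 in SL against DN and -1.88 ± 0.21 in AB against A. The keratan sulfate sulfotransferase Chst1 was at -2.16 ± 0.16 in SL against DN and -1.43 ± 0.16 in B against A. Csgalnact1, which starts chondroitin chains, was at -1.79 ± 0.26 in AB against A and -1.77 ± 0.26 in B against A.

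Of 15 growth factors and receptors reported to bind the family, 11 were measured. In SL against DN 6 were higher and 1 lower, and in AB against A and in B against A 5 were higher and 1 lower. Their medians were 0.42, 0.13 and 0.25 in those pairs. Bmp4 was at 3.17 ± 0.31, 2.38 ± 0.31 and 0.89 ± 0.31, and it was the only gene of the list called in AB against B (1.49 ± 0.31, adjusted p = 0.014). Egfr, which decorin can bind, was at 1.80 ± 0.16, 1.11 ± 0.16 and 0.86 ± 0.16, and Tlr4, which biglycan can engage, was at 1.29 ± 0.13, 1.28 ± 0.13 and 1.13 ± 0.13. None was called in A against DN.

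Of 9 proteases reported to cut the family or its precursors, 7 were measured, and none was lower in any of the 5 pairs. In SL against DN 6 were higher, in AB against A 6 and in B against A 5, with medians of 0.93, 0.56 and 0.49. Bmp1, which removes the propeptides of decorin, biglycan and osteoglycin, was at 1.10 ± 0.10 in SL against DN and 0.38 ± 0.10 in A against DN (adjusted p = 0.0291). Mmp3 was at 2.45 ± 0.23 in SL against DN and 1.20 ± 0.23 in AB against A, and Mmp14 at 1.06 ± 0.10 in SL against DN, 0.84 ± 0.10 in AB against A and 0.85 ± 0.10 in B against A. Adamts4 was at 0.78 ± 0.16 in AB against A and 1.01 ± 0.16 in B against A, and Mmp13 at 0.50 ± 0.10 in B against A. None was called in AB against B.

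Markers of other cells also differed between the groups, some in the direction of Aspn, Ogn, Lum and Kera and some against it. Tendon and periosteum markers (7 of 7 measured) had summed linear intensities of 11255 to 14181 in SL, 16158 to 18619 in AB, 17760 to 23686 in B, 10075 to 12236 in A and 8772 to 9878 in DN. Of these, 6 of 7 were higher in AB and in B than in A, and 3 were higher and 1 lower in SL than in DN. The tendon gene Tnmd was at 1.77 ± 0.24 in AB against A and 2.30 ± 0.24 in B against A, and at -2.11 ± 0.24 in SL against B, beside the Kera differences of the same sign. Chondrocyte markers (7 of 7) summed to 20381 to 22058 in SL, 16427 to 23204 in AB, 19317 to 26865 in B, 37092 to 39730 in A and 34802 to 45038 in DN, and 6 of 7 were lower in SL than in DN and in AB and in B than in A. Sca-1-positive fibroblast markers (5 of 6) summed to 7256 to 9243 in SL, 2574 to 6113 in AB, 1952 to 6980 in B, 1769 to 2472 in A and 759 to 1643 in DN, and 5 of 5 were higher in SL than in DN. No marker was listed at 0, the lowest value of the table being log2 3.28, and the part of these cells in the members' differences was not tested.

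In SL, where Omd was lowest, the summed osteoblast markers were lowest too. The 8 measured osteoblast markers summed to 17354 to 19208 in SL, 23656 to 26810 in AB, 20806 to 26058 in B, 23482 to 26322 in A and 21278 to 25286 in DN, with 1 higher and 5 lower in SL than in DN. Dmp1 was at -2.67 ± 0.24, Alpl at -0.93 ± 0.15 and Spp1 at -0.87 ± 0.11 in SL against DN. Col1a1, the marker called higher, averaged 13.01 in SL and 12.74 in DN. The parallel was not seen in AB against DN, where Omd was at -0.54 and 3 osteoblast markers were higher and 0 lower. In B against DN, where Omd was at -0.38, 1 was higher and 1 lower. The shares over all genes were 24.7% higher and 21.4% lower in AB against DN, and 24.4% and 21.3% in B against DN. Of the chondrocyte markers, 6 of 7 were lower and 0 higher than in DN in each of SL, AB and B, where Omd was lower too. In SL against AB, where Omd was also lower, 1 chondrocyte marker was higher and 0 lower, beside 4.43% and 4.92% of all genes. The part of the osteoblast and chondrocyte markers in the Omd differences was not tested.

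Among other markers, those of marrow stroma (5 of 5 measured) were higher in AB than in A for 5 of 5 and in B than in A for 4 of 5. They summed to 749 to 1311 in SL, 7869 to 12311 in AB, 3193 to 4342 in B, 1234 to 1536 in A and 562 to 654 in DN. Pericyte and smooth muscle markers (6 of 6) summed to 2032 to 2736 in SL, 3066 to 4797 in AB, 5517 to 11190 in B, 1406 to 2416 in A and 1169 to 1861 in DN, with 5 of 6 higher in B than in A. Neutrophil markers (8 of 9) summed to 7193 to 16096 in SL, 9391 to 22760 in AB, 17084 to 28370 in B, 10134 to 18589 in A and 7329 to 15545 in DN. Of these markers, 7 of 8 were higher in B than in DN, where 24.4% of all genes were higher. The 3 of 4 measured leukocyte and monocyte markers were higher in B than in DN as well, and their summed intensities were 973 to 2425 in SL, 1454 to 4116 in AB, 2464 to 4504 in B, 1648 to 3167 in A and 1107 to 3086 in DN. Endothelial markers (2 of 4) summed to 203 to 466 in SL, 95.8 to 192 in AB, 124 to 311 in B, 82.97 to 153 in A and 82.7 to 199 in DN, and 1 was higher in SL than in DN. Markers of B cells, erythroid cells and skeletal muscle were not in the filtered table. The part of any of these cells in the members' differences was not tested.

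The genes most like each member were taken by Pearson's r of log2 signal over the 20 arrays, as a description, since arrays of a group share its sort. Aspn ran with Thbs2 (r = 0.986) and Postn (r = 0.975), Ogn with Itgbl1 (r = 0.984) and Fat4 (r = 0.982), and Lum with Mmp2 (r = 0.978) and Ctsk (r = 0.970). Dcn ran with Dpt (r = 0.971) and Selenbp1 (r = 0.967), Kera with Basp1 (r = 0.953) and Tnmd (r = 0.941), and Omd with Emb (r = 0.955). For the 3 members that the main F test did not call, the closest genes were Rdh11 for Bgn (r = 0.860), Hoxd9 for Prelp (r = 0.844) and Ror2 for Fmod (r = 0.799). Among the members, Aspn, Ogn and Lum were closest to each other (r = 0.959 to 0.967), and Dcn and Omd were the most opposed (r = -0.749). After the group means were removed, Aspn and Lum kept r = 0.655 and Kera and Ogn r = 0.636, while Prelp ran against Lum (r = -0.761) and Kera (r = -0.713). Without A replicate 1, chosen after seeing the data, these values were 0.502 for Aspn and Lum, 0.590 for Kera and Ogn, -0.422 for Prelp and Lum and -0.373 for Prelp and Kera.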

How the data were processed

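RNA of 20 arrays, 4 for each of SL, AB, B, A and DN, was biotin-labelled total RNA, per the labels. The authors deposited a filtered table of linear intensity per probe set and a series table of log2 signal, which differ by at most 0.0075 on the log2 scale where both list a probe set, besides tables of log2 differences with p-values and q-values from their own comparisons. Normalization, scanner and filter criterion were not given in the sources used here. Of the 12440 filtered probe sets, 83 without a symbol were left out, and where a gene had several (2431 genes), its probe set of highest mean signal was kept.

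Log2 values were fitted with limma 3.58.1 in R 4.3.3 with a mean per group (15 residual degrees of freedom), two-sided, and adjusted by Benjamini-Hochberg over 9129 genes. The procedure was also run on simulated arrays with independent errors and known differences in B alone. That run cannot show how deviations shared by a replicate number affect the calls. The sums of markers used linear intensities. The main fit used no pairing of arrays. Correlations of deviations between arrays of the same replicate number exceeded 0.1 at every number for AB with B (0.170 to 0.422) and AB with A (0.185 to 0.398). No other pair of groups met this, although B with DN ran from 0.022 to 0.453. The labels do not state a pairing by replicate number. The block on that number was an alternative, fitted over all 5 groups.

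Named were the 9 members, up to 3 called genes with the largest difference per pair from lists of other family genes, collagens, glycosaminoglycan enzymes, ligands and receptors, and proteases, and the genes with the highest correlation to each member. Markers of other cell types were listed as well. A gene and a marker list that uses it are not reported here. The members and lists were chosen with earlier results of these data known. Positions came from the authors' deposited tables and promoters from RefSeq (GRCm38.p6), matched by symbol. Alternatives were another probe set rule, quantile normalization, fits on the arrays of a single pair, the replicate number as a block, each array left out, replicates 1 and 2 alone in AB and B, and no replicate 4. Treating every probe set as a feature was chosen after seeing the data.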

Additional observations from a re-analysis of the deposited data

Results flagged for a closer look

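Of 45 sets of 4 arrays (9 members in 5 groups), 3 held an array far from the other 3, by Dixon's test of the gap against the set's range, which chance meets in about 1 of 20 sets. Lum in AB replicate 2 was 12.309, the highest of its group, with a gap of 0.838 of the range and a group median of 12.191. Prelp in A replicate 1 was 11.232, the lowest of its group, with a gap of 0.855 of the range and a group median of 11.856. Ogn in B replicate 1 was 12.002, the highest of its group, with a gap of 0.830 of the range and a group median of 11.872.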

How the results depend on the processing

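Of 99 results for members (9 in each of 10 pairs and the interaction), none changed direction while called, under any alternative run. With the replicate number as a block 94 kept their side of the threshold and 5 calls were gained, with the mean of a gene's probe sets 97 and 2 gained, and with quantile normalization 96 and 3 gained. With replicates 1 and 2 alone in AB and B 95 kept it and 4 calls were lost, and without any replicate 4 93 kept it and 6 were lost. With every probe set as a feature, chosen after seeing the data, 97 kept it and 2 were lost. On the arrays of a single pair (90 results) 87 kept it, 1 was gained and 2 were lost.

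The members called in A against DN numbered 1 with the mean of probe sets, 2 with the replicate block and 0 to 1 when arrays were left out in turn, against 0. Those called in SL against B numbered 5 with the replicate block, against 3, and in AB against B 1 with the replicate block and 0 to 1 when arrays were left out, against 0. Those called in SL against AB numbered 1 with replicates 1 and 2 alone in AB and B, 1 without any replicate 4, and 1 to 4 when arrays were left out, against 3. The causes were not tested.

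Over all genes, A against DN had 322 calls, 546 with the block, 192 without any replicate 4, 167 on the 2 groups alone, 196 without A replicate 1 and 179 without A replicate 4. AB against B had 139, with 321 under the block, 214 with every probe set, 79 without AB replicate 2 and 70 on the 2 groups alone. The interaction had 61, with 360 under the block, 156 without any replicate 4 and 24 to 152 when arrays were left out. With every probe set as a feature (24539), SL against DN had 6869 against 4122, AB against DN 7270 against 4210, and B against DN 7017 against 4172. The wider filter for symbol-bearing probe sets was not run, since 0 probe sets outside the filtered table had a symbol, and the interaction and the F test were not run on the arrays of 1 pair.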
